A study of Mus musculus with 24 samples.

Results

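The interferon receptor subunits, STATs and interferon regulatory factors (IRFs) described here are 9 genes chosen by name: Ifnar1, Ifnar2, Stat2, Irf1, Irf2, Irf3, Irf5, Irf7 and Irf9. All 9 were among the 36333 genes in the expression table and among the 17267 genes that were abundant enough to be tested. Male mice of the strain labelled C57BL6N, aged 12 to 16 weeks, were subjected to controlled cortical impact (CCI), a model of traumatic brain injury (TBI), and lesional-perilesional tissue labelled as cortex was sequenced at 5 days post injury (dpi). The study's methods name the strain as C57BL/6JRj and the dissected tissue as cortex with striatum, dorsal hippocampus and thalamus. They also give a narrower age range, which starts at 12 weeks and ends before 16 weeks. Markers of striatum and thalamus were detected in every group, and markers of microglia, neurons, astrocytes and oligodendrocytes were also present.

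Injured mice received vehicle, PLX3397, Anakinra or PLX3397 plus Anakinra, with 5 mice in each group. PLX3397, an inhibitor of the receptor kinase CSF1R on which microglia depend, was given in chow at 290 mg/kg from 90 min after CCI until sampling. Anakinra, a recombinant antagonist of the IL-1 receptor IL1R1, was injected subcutaneously at 100 mg/kg at 5 min, 24 h, 48 h and 72 h after CCI. The 4 sham mice underwent anesthesia and a skin incision without craniotomy and received vehicle chow and saline, so injury and craniotomy cannot be told apart in comparisons with them. Each library came from 1 mouse, giving 24 libraries in all. Every vehicle mouse, and no other mouse, carries the letter B in its animal number, and if this marks a batch it cannot be told apart from vehicle treatment.

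Type I interferons signal through a receptor made of IFNAR1 and IFNAR2. The receptor-associated kinases TYK2 and JAK1 phosphorylate STAT proteins, and the transcription factor complex ISGF3 that then forms contains STAT2 and IRF9. ISGF3 binds the interferon-stimulated response element (ISRE) of its target genes, whereas the gamma-activated site (GAS) is the element typical of interferon gamma signalling. IRF3 and IRF7 are activated downstream of nucleic acid sensors and induce interferon genes, and IRF5 acts downstream of Toll-like receptors, mainly in myeloid cells. IRF1 is an interferon-inducible activator and IRF2 its classical antagonist at shared sites. In the brain, microglia are a main cell type that senses nucleic acids and responds to interferons.

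The sequence upstream of the start site was searched for these elements, and the windows of the 4 genes that held a match are shown first because both elements belong to interferon signalling. RefSeq (GRCm38.p6) gave 11 windows for the 9 genes, each with 250 bases before the start. ISRE was searched as GAAANNGAAA and GAS as TTCNNNGAA, on both strands, and no match of one overlapped a match of the other. An ISRE match was present in 2.98% and a GAS match in 7.02% of the 32851 RefSeq windows of the same length. Capitals mark the matches, letters run 5′ to 3′ on the strand of the gene, and the parts shown lie outside the annotated span of that gene.
Stat2, chr10:128270248-128270497, plus strand: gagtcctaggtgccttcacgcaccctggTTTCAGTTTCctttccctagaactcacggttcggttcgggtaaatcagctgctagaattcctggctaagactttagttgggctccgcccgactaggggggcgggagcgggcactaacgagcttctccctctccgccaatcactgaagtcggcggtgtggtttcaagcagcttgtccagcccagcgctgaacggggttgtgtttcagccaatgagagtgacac
Irf1, chr11:53769764-53770013, plus strand: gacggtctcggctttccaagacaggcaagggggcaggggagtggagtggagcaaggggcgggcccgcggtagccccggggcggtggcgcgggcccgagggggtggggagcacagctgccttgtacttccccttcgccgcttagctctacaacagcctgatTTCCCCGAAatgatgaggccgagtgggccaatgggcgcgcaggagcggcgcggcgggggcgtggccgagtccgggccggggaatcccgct
Irf2, chr8:46739495-46739731, plus strand: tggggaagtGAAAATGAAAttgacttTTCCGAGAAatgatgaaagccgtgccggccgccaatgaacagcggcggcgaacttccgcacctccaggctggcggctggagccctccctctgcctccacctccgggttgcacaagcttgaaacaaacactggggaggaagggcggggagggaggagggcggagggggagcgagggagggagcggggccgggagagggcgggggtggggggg
Ifnar2, chr16:91372533-91372782, plus strand: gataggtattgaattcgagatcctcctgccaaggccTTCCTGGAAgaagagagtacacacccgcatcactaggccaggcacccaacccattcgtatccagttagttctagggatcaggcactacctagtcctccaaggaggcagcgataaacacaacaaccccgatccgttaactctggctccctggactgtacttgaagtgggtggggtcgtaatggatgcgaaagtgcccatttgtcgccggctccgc

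The Stat2 window held an ISRE match from 222 to 213 bases before the start, read on the opposite strand. The Irf1 window held a GAS match from 90 to 82 bases before the start. In the Irf2 window, an ISRE match lay 241 to 232 bases and a GAS match 224 to 216 bases before the start. The GAS match of Ifnar2 lay 214 to 206 bases before the start. The other 7 windows, which included those of Irf5, Irf7, Irf9, Irf3 and Ifnar1, did not hold these letters within 250 bases. The Irf5 window, both Irf9 windows and a second Irf1 window lay wholly within the annotated span of their own gene. So did 183 of the 250 bases of the Ifnar1 window and 75 of those of the Irf7 window. For these bases a missing match does not describe the sequence before the annotated span. A letter match is a description of the sequence and not evidence of binding. The strongest responder to injury, Irf7, is shown as an example of a window without a match.
Irf7, chr7:141266500-141266674, minus strand: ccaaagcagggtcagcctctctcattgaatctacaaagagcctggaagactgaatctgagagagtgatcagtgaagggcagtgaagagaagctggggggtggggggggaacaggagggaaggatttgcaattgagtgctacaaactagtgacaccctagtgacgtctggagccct

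Values are TPM, a level that is scaled for transcript length and sums to 1000000 in each library. Between 22160 and 23249 genes were above 0 TPM per library. Since TPM does not retain the number of reads, neither depth nor counting error can be stated. Differences are on the log2(TPM + 1) scale, which understates the change of low genes, and are given ± standard error. Adjusted p-values come from limma across all 17267 tested genes. Per-mouse values are listed in the order of the animal numbers, which pairs no mice.

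Injury was associated with higher levels of 8 of the 9 genes, most of all Irf7 and Irf5, and PLX3397 plus Anakinra with lower levels of 7. In vehicle-treated mice the mean TPM was 6.62-fold that of sham mice for Irf7, 5.09-fold for Irf5 and 2.86-fold for Irf9. Irf2 was the gene of this group that did not pass the test. Across all tested genes, 26.6% were higher and 27.7% lower in vehicle-treated than in sham mice. The median difference was 0.94 for the 9 genes and -0.01 for all tested genes. With PLX3397 alone 2 genes were lower than with vehicle, and with Anakinra alone none passed the test. The share of all tested genes that was lower than with vehicle was 9.6% with both drugs, 6.66% with PLX3397 and 0.0463% with Anakinra. In this bulk tissue fewer cells of a type and less RNA per cell cannot be told apart.

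**Figure D1:**
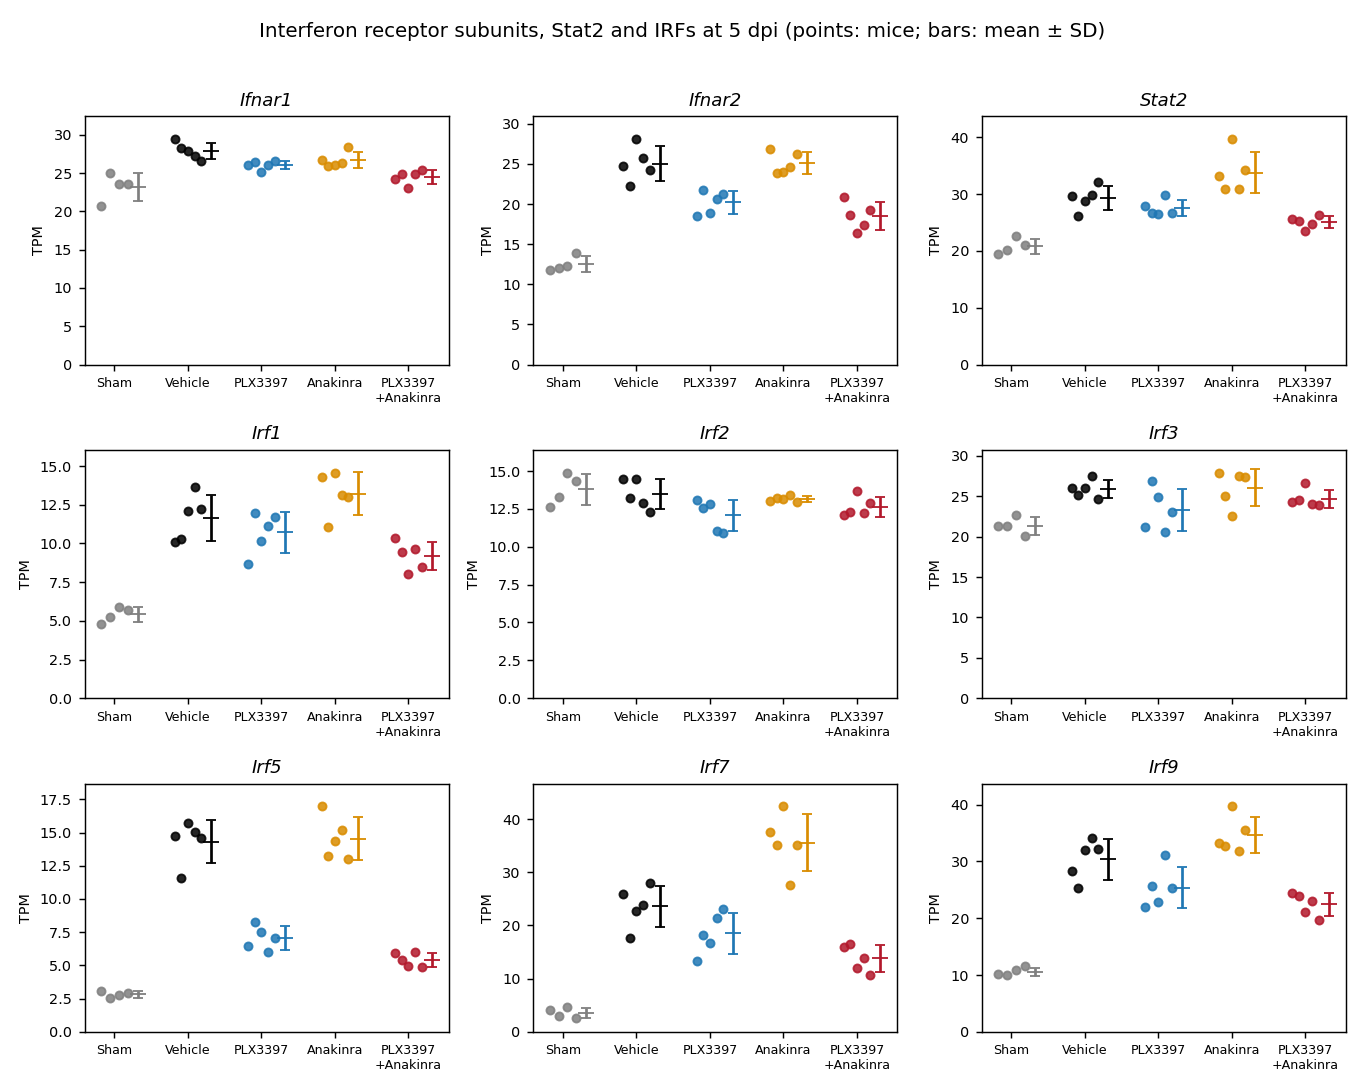
TPM of each of the 9 genes (vertical axis, from 0) by group (horizontal axis), with 1 point per mouse and mean ± SD beside the points (n = 4 sham mice and n = 5 mice per TBI group). For Irf5 the PLX3397 and PLX3397+Anakinra mice lie between 4.89 and 8.29 TPM, below every vehicle and Anakinra mouse, while for Irf7 the Anakinra mice reach 42.4 TPM.

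IFNAR2 is the high-affinity chain of the type I interferon receptor. Ifnar2 was 11.8, 12.1, 12.3 and 13.96 TPM in the 4 sham mice and 24.8, 22.2, 28.1, 25.8 and 24.3 TPM in the 5 vehicle-treated mice. The groups did not overlap, and the difference was 0.94 ± 0.07 (adjusted p = 4.1e-11), a mean 2.00-fold that of sham. PLX3397-treated mice measured 18.5, 21.8, 18.9, 20.6 and 21.2 TPM, all below the lowest vehicle-treated mouse. The difference between PLX3397 and vehicle was -0.29 ± 0.07 (adjusted p = 0.0047), a mean lower by 19.2%. With Anakinra, Ifnar2 was 26.9, 23.8, 24.0, 24.6 and 26.3 TPM, which overlapped the vehicle group and differed from it by 0.01 ± 0.07 (adjusted p = 0.980, 95% interval -0.13 to 0.15). With both drugs it was 20.9, 18.6, 16.4, 17.5 and 19.2 TPM, again below every vehicle-treated mouse (-0.42 ± 0.07, adjusted p = 6.3e-05). The mean with both drugs was 8.38% below that with PLX3397 alone, with overlapping groups and no call (adjusted p = 0.786).

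IFNAR1 is the other chain, which binds TYK2. Ifnar1 varied over a narrow range, from 20.7 to 25.0 TPM in sham mice and 26.6 to 29.5 TPM with vehicle. The injured mice treated with vehicle were all above the sham mice, by 0.26 ± 0.05 (adjusted p = 7.4e-05). Ifnar1 ranged from 25.1 to 26.5 TPM with PLX3397, 26.0 to 28.5 TPM with Anakinra and 23.0 to 25.4 TPM with both drugs. The level with both drugs was lower than with vehicle in every mouse (-0.18 ± 0.05, adjusted p = 0.0064), and it was not called different from sham (0.08 ± 0.05, adjusted p = 0.229). The higher level with PLX3397 than in sham mice (0.16 ± 0.05, adjusted p = 0.0078) was lost without sham mouse J07 (0.11, adjusted p = 0.058), within a range of 0.0018 to 0.058 over all alternatives. PLX3397 alone against vehicle did not pass the test (-0.09 ± 0.05, adjusted p = 0.213), although the 5 mice of each group did not overlap. The Ifnar1 difference between both drugs and Anakinra (-0.12 ± 0.05, adjusted p = 0.082) passed the test after median-ratio rescaling of the libraries (-0.15, adjusted p = 0.017), with adjusted p-values of 0.017 to 0.185 over all alternatives.

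The DNA-binding subunit of ISGF3, IRF9, showed the third largest injury difference. Irf9 was 10.1, 9.99, 10.9 and 11.5 TPM in sham mice and 28.3, 25.3, 31.95, 34.1 and 32.3 TPM in vehicle-treated mice. Every injured mouse lay above every sham mouse, and vehicle differed from sham by 1.43 ± 0.09 (adjusted p = 2.6e-12). PLX3397-treated mice had 21.9, 25.7, 22.8, 31.1 and 25.3 TPM, with 3 of the 5 inside the vehicle range and mouse J19 the highest. That difference was -0.25 ± 0.09 and not called (adjusted p = 0.066), but it passed the test without PLX3397 mouse J19 (-0.33, adjusted p = 0.012) and without vehicle mouse J17B (-0.32, adjusted p = 0.015). Over all alternatives the adjusted p was 0.012 to 0.184. In Anakinra-treated mice Irf9 was 33.3, 32.7, 39.7, 31.8 and 35.6 TPM (0.19 ± 0.09 versus vehicle, adjusted p = 0.382, 95% interval 0.01 to 0.37). Both drugs gave 24.5, 24.0, 21.01, 23.0 and 19.7 TPM, all below the vehicle range. The difference from vehicle was -0.42 ± 0.09 (adjusted p = 0.0013), and the mean remained 2.11-fold that of sham.

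STAT2 is the subunit of ISGF3 that carries its transactivation domain. Stat2 was 19.5, 20.2, 22.6 and 20.99 TPM in sham mice and 29.7, 26.2, 28.7, 29.8 and 32.1 TPM in vehicle-treated mice, without overlap (0.47 ± 0.07, adjusted p = 1.2e-06). PLX3397-treated mice measured 27.9, 26.7, 26.5, 29.8 and 26.6 TPM, inside the vehicle range (-0.09 ± 0.06, adjusted p = 0.435, 95% interval -0.21 to 0.04). Anakinra-treated mice measured 33.1, 31.0, 39.7, 30.9 and 34.3 TPM, the highest of the 5 groups by mean. They overlapped the vehicle range, and the difference did not pass the test (0.20 ± 0.06, adjusted p = 0.166). With both drugs Stat2 was 25.7, 25.2, 23.6, 24.8 and 26.3 TPM. This was lower than with vehicle (-0.21 ± 0.06, adjusted p = 0.018), with 1 mouse of the combination group above the lowest vehicle mouse. The call was lost without vehicle mouse J20B (-0.18, adjusted p = 0.061) and without combination mouse J09 (-0.19, adjusted p = 0.053), and over all alternatives the adjusted p was 0.0050 to 0.061. Against Anakinra alone the groups did not overlap (-0.41 ± 0.06, adjusted p = 2.7e-05).

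Irf1, the gene of the activator, passed the test after injury and Irf2, that of its antagonist, did not. Whether the 2 differences differed from each other was not tested. Irf1 was 4.82, 5.25, 5.89 and 5.73 TPM in sham mice and 10.1, 10.3, 12.1, 13.6 and 12.2 TPM with vehicle, a mean 2.15-fold that of sham (0.97 ± 0.10, adjusted p = 7.1e-09). It was 8.65, 11.9, 10.2, 11.1 and 11.7 TPM with PLX3397 (-0.11 ± 0.09 versus vehicle, adjusted p = 0.525, 95% interval -0.30 to 0.08). Both of these TBI groups lay above the sham range and overlapped each other. Anakinra-treated mice had 14.3, 11.1, 14.6, 13.1 and 13.03 TPM of Irf1 (0.17 ± 0.09 versus vehicle, adjusted p = 0.461). With both drugs it was 10.3, 9.42, 8.06, 9.67 and 8.45 TPM, which overlapped the vehicle range at 1 mouse of the combination group and lay below every Anakinra mouse. The difference from vehicle was -0.31 ± 0.09 (adjusted p = 0.020). This call depended on single mice, since it was lost on leaving out vehicle mouse J18B (-0.30, adjusted p = 0.053), J19B (-0.26, adjusted p = 0.077) or J20B (-0.29, adjusted p = 0.0502), or combination mouse J09 (-0.27, adjusted p = 0.066) or J17 (-0.28, adjusted p = 0.054). Over all alternatives the adjusted p was 0.011 to 0.077.

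Irf2 lay between 10.9 and 14.9 TPM in all 24 mice, and all 5 groups overlapped. Vehicle differed from sham by -0.03 ± 0.06 (adjusted p = 0.712, 95% interval -0.16 to 0.10). The difference from vehicle was -0.15 ± 0.06 with PLX3397 (adjusted p = 0.133), -0.03 ± 0.06 with Anakinra (adjusted p = 0.882) and -0.08 ± 0.06 with both drugs (adjusted p = 0.369). The single call for Irf2 was a lower level with PLX3397 than in sham mice (-0.18 ± 0.06, adjusted p = 0.026). It was lost in the fit of only those 2 groups (-0.18, adjusted p = 0.081) and on leaving out PLX3397 mouse J19 (-0.15, adjusted p = 0.071) or J20 (-0.14, adjusted p = 0.082), or sham mouse J15 (-0.14, adjusted p = 0.101) or J16 (-0.16, adjusted p = 0.075). Over all alternatives the adjusted p was 0.013 to 0.101.

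IRF5 acts with MyD88 downstream of Toll-like receptors, and its gene had the largest estimate for PLX3397 among the 9 genes. Irf5 was 3.03, 2.51, 2.75 and 2.95 TPM in sham mice and 14.7, 11.6, 15.7, 15.01 and 14.6 TPM in vehicle-treated mice (2.00 ± 0.09, adjusted p = 6.9e-15). PLX3397-treated mice had 6.47, 8.29, 7.54, 6.02 and 7.02 TPM, and the highest of them was below the lowest vehicle-treated mouse. The difference was -0.92 ± 0.09 (adjusted p = 6.5e-08), a mean lower by 50.6%. All 10 microglial markers were also lower with PLX3397 (median -1.35), and their part in the Irf5 difference was not tested. Anakinra-treated mice had 16.99, 13.2, 14.4, 15.2 and 13.02 TPM, overlapping the vehicle range (0.02 ± 0.09, adjusted p = 0.947, 95% interval -0.16 to 0.21). Both drugs together gave 5.91, 5.39, 4.95, 6.03 and 4.89 TPM, a mean 62.0% below vehicle (-1.25 ± 0.09, adjusted p = 2.4e-10). The combination and PLX3397 groups touched, with 1 combination mouse just above the lowest PLX3397 mouse. Their difference of -0.32 ± 0.09 had an unadjusted p of 0.0012 but did not pass the test over all genes (adjusted p = 0.180). The level with both drugs was still 1.93-fold that of sham (0.75 ± 0.09, adjusted p = 5.9e-07).

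IRF7 is the IRF that amplifies interferon production and is itself induced by ISGF3. Irf7 was 4.19, 2.95, 4.596 and 2.50 TPM in sham mice and 25.8, 17.6, 22.6, 23.8 and 27.9 TPM in vehicle-treated mice. No injured mouse of any group fell into the sham range, and the vehicle difference was 2.44 ± 0.16 (adjusted p = 3.9e-12). PLX3397-treated mice spread from below to within the vehicle range, at 13.2, 18.2, 16.7, 21.4 and 23.1 TPM (-0.34 ± 0.15, adjusted p = 0.179, 95% interval -0.65 to -0.03). Anakinra-treated mice had 37.5, 35.1, 42.4, 27.7 and 35.2 TPM, and 4 of the 5 were above every vehicle-treated mouse. The difference was 0.58 ± 0.15, the largest among the 9 genes for Anakinra alone, and it did not pass the test (adjusted p = 0.109, 95% interval 0.26 to 0.89). With both drugs Irf7 was 15.9, 16.6, 11.9, 13.9 and 10.7 TPM, below every vehicle and every Anakinra mouse. Its mean was 41.5% below vehicle (-0.73 ± 0.15, adjusted p = 0.0012) and 61.2% below Anakinra alone (-1.31 ± 0.15, adjusted p = 6.0e-07). Against PLX3397 alone the combination group overlapped and was not called (-0.39 ± 0.15, adjusted p = 0.559).

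IRF3, the constitutive partner of IRF7 in inducing interferon genes, passed the test after injury with a small difference. Irf3 ranged from 20.1 to 22.7 TPM in sham mice and from 24.7 to 27.5 TPM with vehicle, without overlap (0.27 ± 0.07, adjusted p = 0.0019). It ranged from 20.6 to 26.9 TPM with PLX3397, 22.5 to 27.9 TPM with Anakinra and 24.0 to 26.6 TPM with both drugs, and all of these overlapped vehicle. No drug difference from vehicle passed the test, with -0.15 ± 0.06 for PLX3397 (adjusted p = 0.149). Leaving out PLX3397 mouse J02, the highest of its group, brought that difference past the threshold (-0.20, adjusted p = 0.039), within a range of 0.039 to 0.334 over all alternatives. The higher level with both drugs than in sham mice (0.20 ± 0.07, adjusted p = 0.022) was lost without combination mouse J09 (0.17, adjusted p = 0.058) or sham mouse J16 (0.17, adjusted p = 0.077), within a range of 0.013 to 0.077.

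Counted together, PLX3397 versus vehicle gave 0 higher and 2 lower among the 9 genes, Irf5 and Ifnar2, where 3.23% of all tested genes were higher and 6.66% lower. All 9 estimates lay below 0, with a median of -0.15. Anakinra versus vehicle gave 0 of 9 by limma, with 3 of 9 at an unadjusted p under 0.05 (Irf7, Stat2 and Irf9, each higher). Over all tested genes this comparison had 0.0695% higher and 0.0463% lower calls, 20 genes in total, and 2148 genes at an unadjusted p under 0.05. Both drugs versus vehicle gave 7 of 9 lower and 0 higher, with 9.6% of all tested genes lower and 7.88% higher. All 9 estimates were again below 0, with a median of -0.31 against 0.01 for all genes. These 3 comparisons share the vehicle mice and are not independent of each other.

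The combination differed from Anakinra alone in 6 of the 9 genes, all lower: Ifnar2, Stat2, Irf1, Irf5, Irf7 and Irf9. Among all tested genes 8.1% were lower and 4.67% higher in that comparison. Against PLX3397 alone 0 of 9 passed the test by limma and 3 were at an unadjusted p under 0.05 (Irf5, Irf7 and Irf1), as were 1159 of all tested genes, where 0.145% of all tested genes were called lower and 0.00579% higher. A test of any difference among the 4 TBI groups called 7 of the 9 genes, compared with 15.7% of all tested genes. Irf3 (adjusted p = 0.212) and Irf2 (adjusted p = 0.256) were the 2 not called.

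Compared with sham, 7 of the 9 genes were higher with PLX3397, 8 with Anakinra and 7 with both drugs, and Irf2 was lower with PLX3397. Over all tested genes 22.7% were higher and 22.5% lower with PLX3397, 25.1% and 29.2% with Anakinra, and 20.7% and 18.1% with both drugs. Of the mean TPM difference between vehicle and sham, 37.0% was present for Irf5 with PLX3397 and 22.8% with both drugs. For Irf7 the share was 74.8% with PLX3397, 160.1% with Anakinra and 51.2% with both drugs. For Irf9 the shares were 74.6%, 122% and 59.8% in the same order. Every Irf5, Irf7, Irf9, Irf3, Ifnar2, Stat2 and Irf1 value of the combination group stayed above the sham range. The share of all tested genes whose groups separated in this way was not computed, for this or the other comparisons of group ranges.

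**Figure D2:**
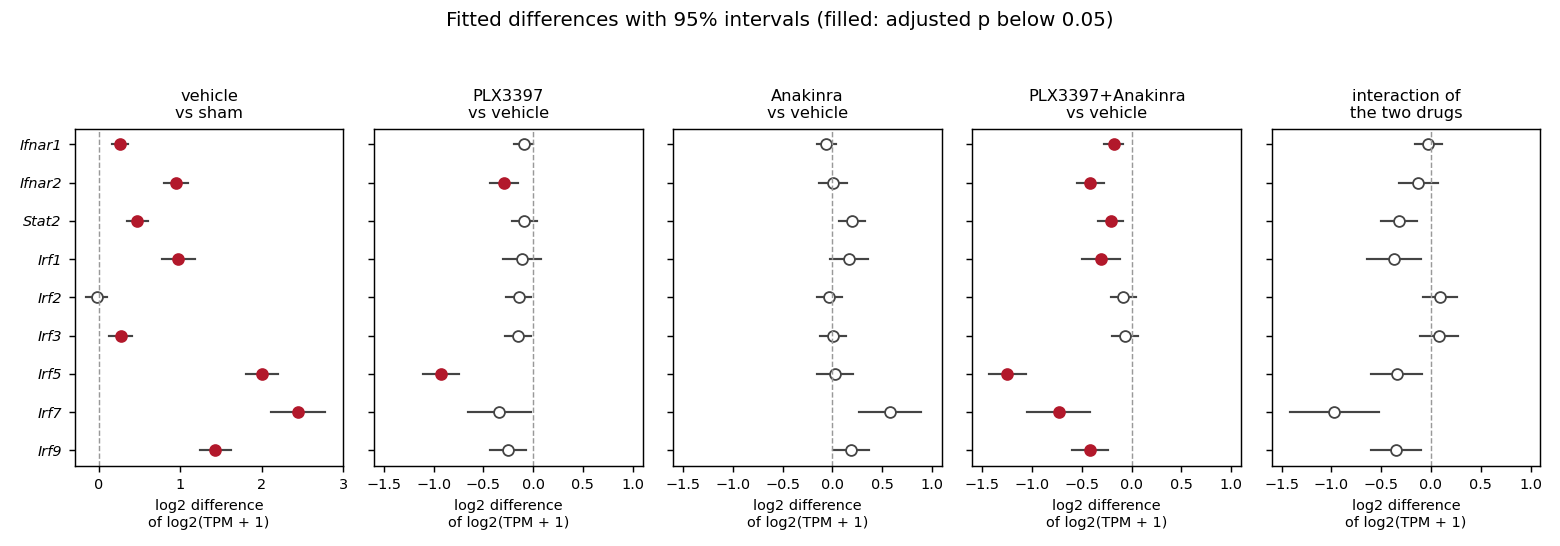
Fitted differences on the log2(TPM + 1) scale (horizontal axis) for the 9 genes (vertical axis), with 95% intervals and filled points where the adjusted p was below 0.05. The vehicle versus sham panel has its own scale and the 4 drug panels share another; 8 points are filled for injury, 2 for PLX3397, none for Anakinra, 7 for both drugs and none for the interaction.

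The interaction asks whether the effect of Anakinra differed with and without PLX3397. It was negative for 7 of the 9 genes, with a median of -0.32, and largest in size for Irf7 at -0.97 ± 0.22 (95% interval -1.42 to -0.53, adjusted p = 0.275). For Stat2 it was -0.32 ± 0.09 (adjusted p = 0.336), for Irf9 -0.35 ± 0.12 (adjusted p = 0.467), for Irf1 -0.37 ± 0.13 (adjusted p = 0.478) and for Irf5 -0.35 ± 0.12 (adjusted p = 0.489). These 5 genes were at an unadjusted p under 0.05, but 0 of 9 and 0% of all 17267 tested genes passed the adjusted threshold by limma, with 1395 genes at an unadjusted p under 0.05. Without PLX3397 mouse J01, the lowest of its group for Irf7, the Irf7 interaction crossed the threshold (-1.08, adjusted p = 0.0495). Over all alternatives its adjusted p ranged from 0.0495 to 0.519.

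Other genes of the pathway were read from lists chosen by function. Among receptor chains, kinases and STATs other than the members, 12 of 13 were tested. In vehicle-treated mice versus sham 8 were higher and 0 lower, including Il10rb, a chain shared by IL-10 family and lambda interferon receptors (1.71 ± 0.09, adjusted p = 1.3e-13). With PLX3397 3 were lower than with vehicle, namely Il10rb (-0.71 ± 0.09), the interferon gamma receptor chain Ifngr1 (-0.45 ± 0.09) and Stat6 (-0.39 ± 0.07). With both drugs 6 were lower, including Tyk2 (-0.22 ± 0.07, adjusted p = 0.026). The kinase gene Jak1 measured -0.08 ± 0.03 for injury and -0.01 ± 0.03 for both drugs, neither called. With Anakinra 0 of 12 were called, with 2 at an unadjusted p under 0.05.

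The remaining IRF with a sizeable level was Irf8, a myeloid lineage factor. Irf8 rose with injury (2.50 ± 0.13, adjusted p = 8.6e-14) and fell with PLX3397 (-1.24 ± 0.13, adjusted p = 1.8e-07) and with both drugs (-1.56 ± 0.13, adjusted p = 1.7e-09). It was the single call against vehicle for either treatment among 5 tested genes of the list of other IRFs and IRF2-binding proteins, of 6 listed. Injury gave 2 higher and 1 lower in that list.

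Sensors and kinases upstream of Irf3, Irf5 and Irf7 numbered 19 tested genes. After injury 16 were higher and 2 lower, led by Unc93b1, which traffics the endosomal Toll-like receptors (2.56 ± 0.12, adjusted p = 3.3e-15), and Tlr7, a sensor of single-stranded RNA (2.74 ± 0.15, adjusted p = 9.6e-14). PLX3397 gave 0 higher and 6 lower, with -1.09 ± 0.11 for Unc93b1, -1.33 ± 0.14 for Tlr7, -0.81 ± 0.10 for the DNA sensor Tlr9 and -0.66 ± 0.11 for Tmem173, which encodes STING. Both drugs gave 13 lower, adding Ddx58, which encodes the RNA sensor RIG-I (-0.31 ± 0.11, adjusted p = 0.047), Ifih1, which encodes MDA5 (-0.47 ± 0.11, adjusted p = 0.0056), and the adaptor gene Mavs (-0.26 ± 0.07, adjusted p = 0.012). Tbk1, the kinase of IRF3, measured 0.07 ± 0.04 with both drugs and was not called. Anakinra gave 0 of 19, with 2 at an unadjusted p under 0.05.

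Genes that restrain interferon signalling were also measured. Of 15 tested, 9 were higher and 3 lower after injury, including Usp18, which blocks signalling at IFNAR2 (2.47 ± 0.18, adjusted p = 2.7e-11), Socs3 (2.22 ± 0.16, adjusted p = 1.9e-11) and the phosphatase gene Ptpn6 (3.04 ± 0.14, adjusted p = 8.3e-15). With PLX3397 4 were lower, among them Ptpn6 (-1.13 ± 0.14) and Ptpn1 (-0.38 ± 0.07), while Usp18 measured -0.13 ± 0.17 and was not called. With both drugs 7 were lower and 1, Ptpn11, was higher. Usp18 was among those lower (-0.68 ± 0.17, adjusted p = 0.0067). Socs1 and Socs3 were not called with any treatment against vehicle, and Anakinra gave 0 of 15, with 2 at an unadjusted p under 0.05.

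Genes induced by ISGF3 had the highest median injury difference of these lists. Of 24 listed, 22 were in the table and 21 were tested, and 20 were higher in vehicle-treated than in sham mice, with a median difference of 2.14. The largest was that of Cxcl10, a chemokine that attracts T cells (4.28 ± 0.17, adjusted p = 4.5e-16). PLX3397 gave 5 of 21 lower and 0 higher (median -0.18), including Ifi27l2a (-1.25 ± 0.21) and Bst2, which encodes tetherin (-0.58 ± 0.13). Cxcl10 with PLX3397 measured 0.01 ± 0.16 and Ifit1, an RNA-binding antiviral gene, 0.14 ± 0.15, neither called. With both drugs 16 of 21 were lower (median -0.64), including Cxcl10 (-0.53 ± 0.16, adjusted p = 0.024), Oas1a (-0.996 ± 0.16, adjusted p = 6.8e-05) and Isg15, which encodes a ubiquitin-like modifier (-0.84 ± 0.20, adjusted p = 0.0045).

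With Anakinra alone the same list had a median of 0.37, against -0.02 for all tested genes, and 0 of 21 calls by limma. At an unadjusted p under 0.05, 16 were higher and 0 lower, with Zbp1 (0.65 ± 0.17, adjusted p = 0.109) and Cxcl10 (0.61 ± 0.16, adjusted p = 0.110) among those of smallest p. Against Anakinra alone, both drugs gave 20 of 21 lower (median -1.07). The interaction had a median of -0.82, with 0 calls and 20 of 21 negative at an unadjusted p under 0.05, as were 1395 of all tested genes in either direction. The summed level of the 22 genes was 92.0 to 99.0 TPM in sham mice, 409 to 535 TPM with vehicle, 285 to 533 TPM with PLX3397, 571 to 786 TPM with Anakinra and 265 to 374 TPM with both drugs. The Anakinra mice thus lay above, and the combination mice below, every vehicle-treated mouse.

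The ligands were at the limit of the table. All 20 interferon genes listed were in it, none was abundant enough to be tested, and 12 were listed at 0 in every library. Their summed level was at most 0.842 TPM in any mouse. Ifnb1 was above 0 in 3 libraries, with a highest value of 0.179 TPM, and Ifng was also above 0 in 3. Whether ligand transcripts differed between groups could not be assessed at these levels.

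**Figure D3:**
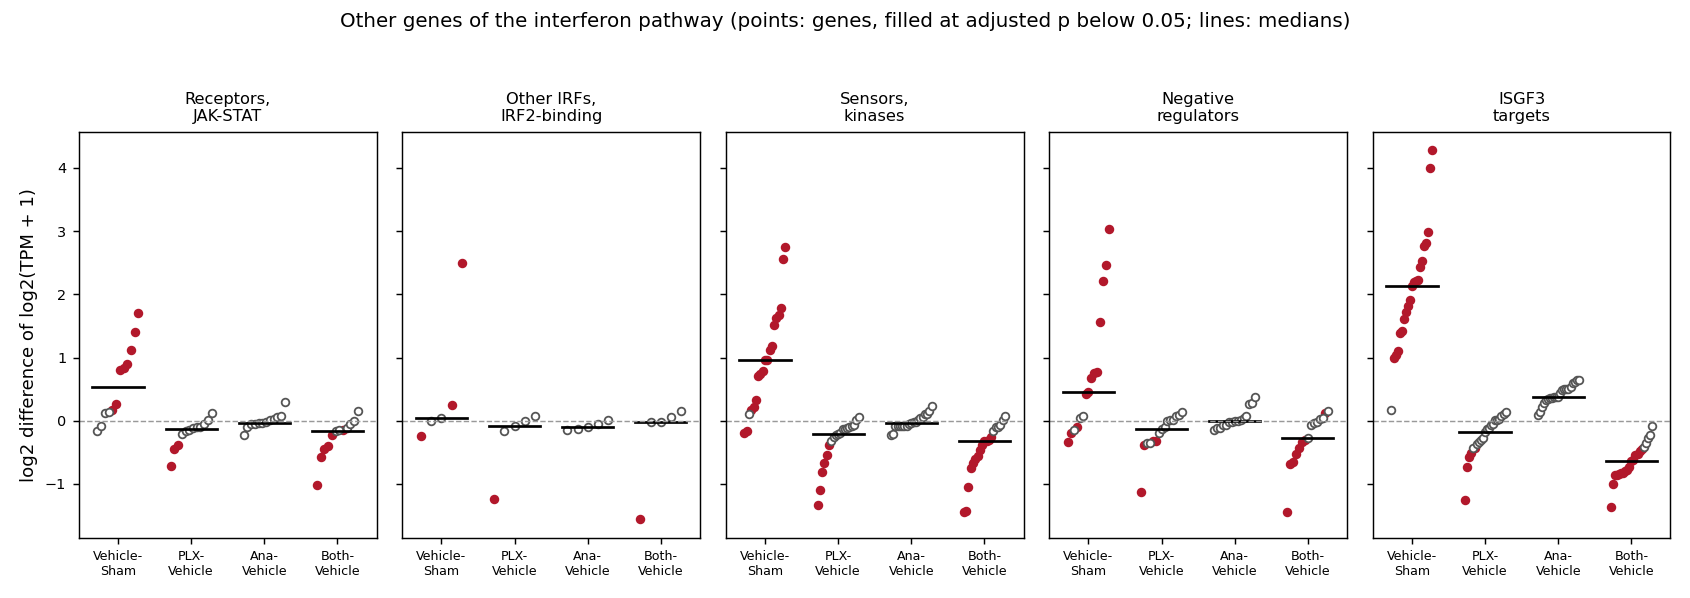
Differences on the log2(TPM + 1) scale (vertical axis) of the tested genes of 5 lists for vehicle versus sham and for PLX3397 (PLX), Anakinra (Ana) and both drugs (Both) versus vehicle, with 1 point per gene, filled at an adjusted p below 0.05, and lines at the medians. ISGF3 targets have 20 filled points after injury and 16 below 0 with both drugs, and no point is filled for Anakinra.

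Markers of other cell types moved in the same comparisons. All 10 microglial markers were higher after injury (median 1.89), all 10 were lower with PLX3397 (median -1.35) and with both drugs (median -1.49), and 0 of 10 were called with Anakinra. Their summed level was 357 to 379 TPM in sham mice, 1474 to 1928 TPM with vehicle, 639 to 976 TPM with PLX3397, 1616 to 1813 TPM with Anakinra and 568 to 759.8 TPM with both drugs. Of 8 monocyte and neutrophil markers 5 were tested, and their sum over all 8 was 0.660 to 3.69 TPM in sham mice, 9.43 to 42.5 TPM with vehicle, 15.6 to 56.1 TPM with PLX3397, 15.8 to 59.2 TPM with Anakinra and 11.6 to 27.5 TPM with both drugs. After injury 5 of the 5 were higher, and 2 were lower than with vehicle both with PLX3397 and with both drugs. The other tested genes, S100a8 (0.73 ± 0.40), S100a9 (0.58 ± 0.46) and Ly6c2 (0.26 ± 0.33), had estimates above 0 with PLX3397 and were not called. The median of the tested markers against vehicle was 0.26 with PLX3397, 0.10 with Anakinra and -0.30 with both drugs. With Anakinra alone 1 of 5 was lower than with vehicle, the neutrophil collagenase gene Mmp8 (-0.65 ± 0.11, adjusted p = 0.020). Mmp8 was also lower with both drugs than with PLX3397 alone (-1.02 ± 0.11, adjusted p = 2.2e-05). The monocyte receptor gene Ccr2 was lower with PLX3397 (-0.84 ± 0.14, adjusted p = 1.3e-04) and with both drugs (-1.005 ± 0.14, adjusted p = 6.7e-06). Markers of T, B and NK cells summed to at most 3.55 TPM in any mouse, with 0 of 8 tested and Trbc2 listed at 0 throughout. After injury 5 of 6 astrocyte, 4 of 5 oligodendrocyte and 4 of 5 endothelial markers were higher, and with either PLX3397-containing treatment at most 2 markers of any of these 3 lists were called against vehicle. Of 8 neuronal markers, 8 were lower after injury and 6 were higher with both drugs than with vehicle. With PLX3397 alone 2 of them were higher and 0 lower than with vehicle, and both drugs against PLX3397 alone gave 0 calls. Of the regional markers, 0 of 5 striatal markers were called by limma for injury or for any treatment against vehicle. At an unadjusted p under 0.05 there was 1 with both drugs and 0 in the other 3 comparisons. Against Anakinra alone, both drugs gave 1 of the 5 striatal markers higher and 0 lower by limma (median 0.30). In that comparison 4 were higher at an unadjusted p under 0.05. The summed level of the 4 thalamic markers was 142 to 166 TPM in sham mice and 111 to 139 TPM with vehicle, and 2 of the 4 were lower after injury. Of these, Rora was lower after injury (-0.47 ± 0.09, adjusted p = 1.1e-04) and higher than with vehicle with PLX3397 (0.27 ± 0.09, adjusted p = 0.0489) and with both drugs (0.28 ± 0.09, adjusted p = 0.025). The part of these cell types and regions in the differences of the 9 genes was not tested.

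Over the 20 TBI libraries, Irf5 followed the microglial marker sum with a Pearson r of 0.97, and the r of deviations from the group means was 0.62. Irf7 followed the summed ISGF3 targets with r of 0.97, and 0.89 for the deviations. Irf7 with the microglial sum gave 0.81 and 0.44. Ifnar2 gave 0.94 and 0.78 with the microglial sum, and Irf9 gave 0.95 and 0.85 with the ISGF3 targets. Within groups Irf2 went the other way, with -0.69 for its deviations against the ISGF3 targets. These correlations are descriptions over 20 libraries of 4 groups that share group differences and library composition.

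**Figure D4:**
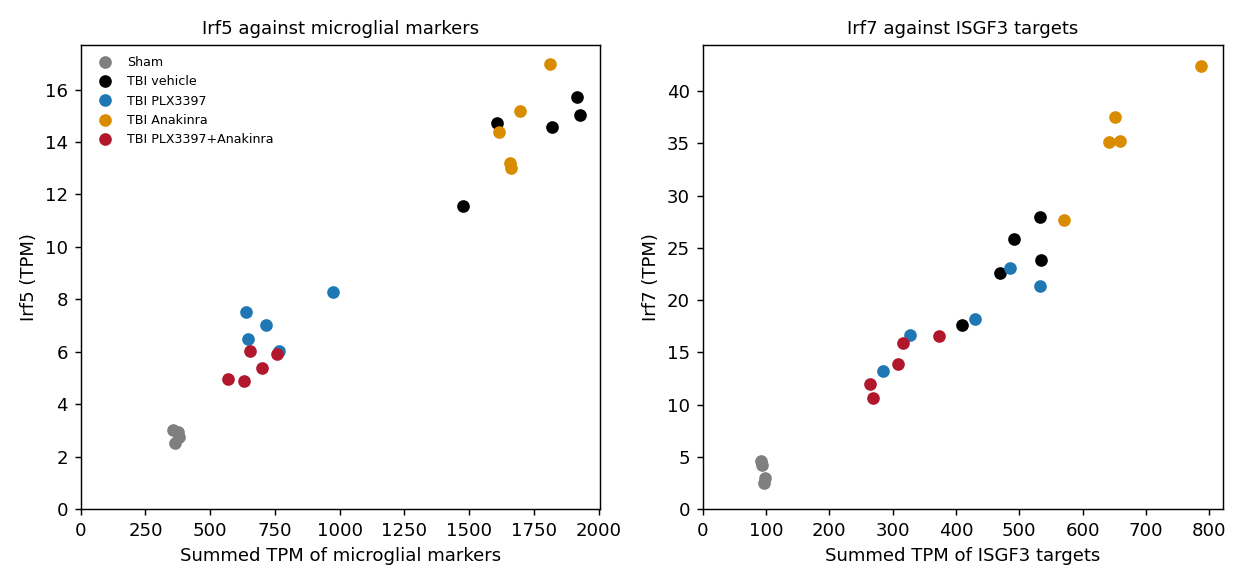
Left, Irf5 (TPM) against the summed TPM of 10 microglial markers. Right, Irf7 (TPM) against the summed TPM of 22 ISGF3 targets. Each point is 1 of 24 mice, coloured by group. Among the injured mice, Irf5 separates into a group of PLX3397-containing treatments and a group of vehicle and Anakinra mice. Sham mice lie below both, at 2.51 to 3.03 TPM of Irf5. Irf7 is highest in Anakinra mice, up to 42.4 TPM.

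The genes whose levels were most like those of the 3 members with the smallest p among the TBI groups were found by Pearson r over the 20 TBI libraries among the 12523 genes that averaged 5 TPM or more. For Irf5 they were Vav1 (r = 0.991), Spi1, which encodes the myeloid factor PU.1 (r = 0.987), and Laptm5 (r = 0.987). For Irf7 they included Oas1a (r = 0.962) and Oasl2 (r = 0.958), both ISGF3 targets. For Ifnar2 they were Ctsc, a lysosomal protease gene (r = 0.982), Srgn (r = 0.970) and Scpep1 (r = 0.969). With PLX3397 alone Vav1 was lower (-1.15 ± 0.10, adjusted p = 1.5e-08), and so was Ctsc (-0.79 ± 0.12, adjusted p = 3.8e-05). Both were chosen by likeness to Irf5 or Ifnar2 in libraries that include these groups, so these limma differences are not separate evidence.

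Some of the 9 genes share exonic bases with a neighbour in GENCODE vM21. The library protocol does not mark strand, so reads in bases shared with an opposite-strand gene cannot be assigned by strand. Reads in bases shared on the same strand cannot be assigned with certainty either. Irf5 (chr6:29526130-29541869, plus strand) shared 411 of 2905 exonic bases with Tnpo3 on the opposite strand, and Irf9 (chr14:55603985-55610030, plus strand) shared 123 of 5386 with Rnf31 on the same strand. Irf7 (chr7:141263183-141266499, minus strand) shared 45 bases with Phrf1 and Irf3 (chr7:44997648-45002848, plus strand) 88 bases with Bcl2l12, each on the opposite strand. Ifnar2 and Irf1 shared 315 and 135 bases with predicted genes. Bcl2l12 was higher after injury (0.39 ± 0.14, adjusted p = 0.019), as Irf3 was, and the part of its shared bases in the Irf3 difference was not tested. Against vehicle no drug difference of Bcl2l12 passed the test. Tnpo3, Rnf31 and Phrf1 were called in neither the injury comparison nor that of both drugs with vehicle. Tnpo3 measured -0.05 ± 0.05 for injury (adjusted p = 0.384). Ifnar1 lies at chr16:91485032-91510523 and Ifnar2 at chr16:91372783-91405589, both on the plus strand. Stat2 lies at chr10:128270498-128292853, Irf1 at chr11:53770014-53778374 and Irf2 at chr8:46739745-46847458, also on the plus strand.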

How the data were processed

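Brain tissue of 24 male mice was sequenced on an Illumina NovaSeq after polyA enrichment, 1 library per mouse from 200 ng of total RNA. The library protocol does not mark strand. According to the methods, the authors trimmed and mapped the reads in CLC Genomics Workbench to GRCm38, and the deposited table gives TPM for 36333 genes in each library. TPM keeps no depth, so the depth per sample is unknown here. The deposited filtered tables repeat these values with the authors' own p-values and F statistics, and were not used here. Groups came from the treatment label of each mouse. The 17267 genes that averaged 0.5 TPM or more across the 24 libraries were tested on log2(TPM + 1) with limma 3.58.1 in R 4.3.3, with 1 mean per group, a trended variance prior and Benjamini-Hochberg adjustment over all tested genes. A gene was called at an adjusted p below 0.05. The fit was tested on simulated data.

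Alternatives were a pseudocount of 0.1 TPM, no filter on low values, a filter at a mean of 5 TPM and median-ratio rescaling. Others were a fit of only the compared groups, a robust variance prior, leaving out each mouse, and cut-offs taken from the study. These cut-offs were an unadjusted p below 0.05, a ratio above 2 and a difference above 4 TPM. The p was that of limma, where the study names t-tests and ANOVA-like methods. The 9 genes and the pathway and marker lists were chosen with earlier results of these data known. The genes named are all 9 members, up to 4 genes of smallest p per list and comparison, and, for the 3 members of smallest p among the TBI groups, the 3 genes of highest Pearson r. A gene that this rule also names is not reported here. Other named genes, such as Jak1, Mavs, Isg15 and Ptpn11, were chosen for their role after their values were seen. Sequences and coordinates came from RefSeq (GRCm38.p6) and exon overlaps from GENCODE vM21. Tables and figures were made with pandas 2.3.3 and matplotlib 3.10.9.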

Additional observations from a re-analysis of the deposited data

Results flagged for a closer look

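A total of 2 values stood apart from the rest of their group among 45 combinations of gene and group, and chance flags about 1 in 20. Irf3 in PLX3397+Anakinra mouse J09 was 26.6 TPM, above the other 4 mice of its group. Irf5 in vehicle mouse J17B was 11.6 TPM, below the other 4. Without J17B the Irf5 difference between PLX3397 and vehicle was -0.99, adjusted p = 1.0e-08.

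For 4 genes all mice given Anakinra without PLX3397 lay on one side of the vehicle mean, and all mice given both drugs lay on the other side of the PLX3397 mean. The limma interaction was -0.97 for Irf7 (adjusted p = 0.275), -0.35 for Irf9 (adjusted p = 0.467), -0.32 for Stat2 (adjusted p = 0.336) and 0.0909 for Irf2 (adjusted p = 0.780). None of the 4 passed the adjusted threshold.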

How the results depend on the processing

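The number of the 9 genes called stayed within 1.5 times its value in 166 of 174 recomputations over the 10 comparisons. Most of these recomputations left out 1 mouse, and a count of 0 that stayed at 0 was taken as unchanged. The study's cut-offs, which ask for a ratio above 2, were applied with the unadjusted limma p. They gave fewer in every comparison that had a call, shown here with the number among all 17267 tested genes in brackets. Against vehicle there were 1 (176) for PLX3397 and 1 (285) for both drugs. Against sham there were 4 (909) for vehicle, 3 (632) for PLX3397, 5 (914) for Anakinra and 2 (500) for both drugs. Both drugs versus Anakinra gave 2 (271). The interaction gave 0 to 1 genes on leaving out single mice, with Irf7 called without PLX3397 mouse J01. Of the single-gene differences, 15 lost and 5 gained a call in 1485 recomputations. Signs turned in 12, all for uncalled differences near 0 on leaving out 1 mouse: Ifnar2 (-0.0330 to 0.0488), Irf3 (-0.0181 to 0.0564) and Irf5 (-0.0468 to 0.0589) for Anakinra versus vehicle, and Irf2 (-0.0683 to 0.00586) for vehicle versus sham. Median-ratio rescaling shifted the median difference over all genes by at most 0.031 on the log2 scale. No paired analysis was made because each animal number names 1 mouse and the labels state no pairs. Vehicle mice J01B, J19B and J20B share digits with PLX3397 mice J01, J19 and J20, and J17B with combination mouse J17. Whether these shared digits tie the mice is not stated. The depth behind the TPM values is unknown, so genes near 0, such as the interferon ligands, could not be assessed.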
